A study of Homo sapiens with 16 samples.

Results

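Regions open only with sorafenib were the merged ATAC-seq regions that held a peak in both libraries of sorafenib-treated cells and in neither library of solvent-treated cells. Peaks of the 4 deposited lists were merged on chromosomes 1 to 22 and X when they shared at least 1 bp. This gave 220915 regions, of which 14131 (6.40%) were open only with sorafenib. For comparison, 26467 regions (11.98%) were open only with the solvent DMSO, in both of its libraries and in neither sorafenib library, and 75610 (34.2%) held a peak in all 4 libraries. The regions were chosen by the peak calls of the ATAC-seq contrast, so widths, enrichments and positions of the regions are descriptions with no test, and a missing peak is the absence of a call and not a measured level.

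All samples carried the label Huh7, a line from a human liver carcinoma, with 2 ATAC-seq libraries of sorafenib (replicates 3 and 4 in the titles) and 2 of DMSO (replicates 1 and 2). Sorafenib is an inhibitor of several kinases, RAF among them, that is used against liver cancer. RNA-seq of polyadenylated RNA covered 3 libraries with sorafenib against 3 with DMSO and, separately, 3 libraries overexpressing MT1G against 3 with an empty vector; MT1G is a metallothionein, a small protein that binds zinc and copper. The labels gave no dose, treatment time, clone or expression promoter, and nothing in them said that replicates were separate cultures, so p-values measure the spread between these libraries, which may be technical.

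ATAC-seq marks DNA that a transposase can reach, mostly gene promoters and distal enhancers where transcription factors displace nucleosomes. Promoters of widely used genes are open in most cells, while the set of open enhancers changes with cell type and with signals such as stress, inflammation or kinase inhibition. AP-1, a dimer of JUN and FOS proteins, and NF-kB, which drives inflammatory genes, are known for opening such inducible elements.

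Among RefSeq promoter windows (300 bases, 250 before to 50 after a gene start, build GRCh38.p14) that overlapped such a region, 5 are shown because their genes had the 3 largest rises and the 2 largest falls of RNA with sorafenib; they were chosen after these values were seen. Capitals mark matches to the NF-kB consensus in CCL20 and SELE, to the metal response element core TGCNCNC in MT1B, and to the GC box GGGCGG bound by SP and KLF factors in WNT5A and OLFML2A, on either strand. The MT1B window is chr16:56651636-56651935 on the plus strand, and 200 bases of it lay in the region.
MT1B: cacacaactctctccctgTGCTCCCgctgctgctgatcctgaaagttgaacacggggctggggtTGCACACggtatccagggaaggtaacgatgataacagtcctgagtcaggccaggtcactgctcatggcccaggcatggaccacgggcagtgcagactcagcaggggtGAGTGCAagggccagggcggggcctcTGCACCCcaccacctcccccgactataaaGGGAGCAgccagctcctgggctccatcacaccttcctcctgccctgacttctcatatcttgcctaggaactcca
The CCL20 window is chr2:227813592-227813891 on the plus strand, with 206 bases in the region.
CCL20: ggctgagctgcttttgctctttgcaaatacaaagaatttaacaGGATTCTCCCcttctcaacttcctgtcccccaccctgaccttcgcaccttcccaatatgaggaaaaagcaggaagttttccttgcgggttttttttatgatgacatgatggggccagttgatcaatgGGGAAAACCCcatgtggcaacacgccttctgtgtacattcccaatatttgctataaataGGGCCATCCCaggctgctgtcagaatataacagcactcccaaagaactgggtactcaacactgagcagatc
The SELE window is chr1:169734030-169734329 on the minus strand, with 282 bases in the region.
SELE: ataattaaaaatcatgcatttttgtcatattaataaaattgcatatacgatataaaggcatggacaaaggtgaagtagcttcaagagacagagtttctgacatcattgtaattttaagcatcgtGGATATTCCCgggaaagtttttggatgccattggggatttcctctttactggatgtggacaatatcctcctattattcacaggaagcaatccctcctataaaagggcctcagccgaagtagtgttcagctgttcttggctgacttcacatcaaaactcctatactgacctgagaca
The WNT5A window is chr3:55487257-55487556 on the minus strand, with 22 bases in the region.
WNT5A: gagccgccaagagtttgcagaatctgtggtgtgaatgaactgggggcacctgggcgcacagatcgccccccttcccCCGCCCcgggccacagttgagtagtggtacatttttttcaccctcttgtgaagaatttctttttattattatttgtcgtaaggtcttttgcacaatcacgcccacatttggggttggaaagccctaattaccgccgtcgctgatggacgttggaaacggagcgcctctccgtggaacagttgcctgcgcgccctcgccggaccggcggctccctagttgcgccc
The OLFML2A window is chr9:124776883-124777182 on the plus strand, with 177 bases in the region.
OLFML2A: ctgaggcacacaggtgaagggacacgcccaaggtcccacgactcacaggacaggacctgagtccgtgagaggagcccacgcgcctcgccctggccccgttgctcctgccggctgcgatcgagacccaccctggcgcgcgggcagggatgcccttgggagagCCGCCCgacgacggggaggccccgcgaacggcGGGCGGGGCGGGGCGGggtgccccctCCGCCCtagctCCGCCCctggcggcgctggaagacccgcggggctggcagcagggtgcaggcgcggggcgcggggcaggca
The metal pattern TGCNCNC occurred 5 times in the MT1B window, the NF-kB pattern 3 times in the CCL20 window and 1 time in the SELE window, and the GC box 6 times in the OLFML2A window. Matches left unmarked were also present. The NF-kB pattern occurred 1 time each in the MT1B and WNT5A windows and 2 times in the OLFML2A window. The metal pattern occurred 4 times in the WNT5A window and 3 times in the OLFML2A window, and the GC box 1 time in the MT1B window. Whole windows were searched, and some marked matches lay outside the region. These were the GC box of WNT5A, where the region covered only the last 22 printed bases, GGATTCTCCC of CCL20 and TGCTCCC of MT1B. TGCACAC of MT1B lay across the edge of the region. A match is a description of the letters and not a measured binding site.

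The 4 peak lists differed in ways that touch every count given here. They held 131238 and 156757 peaks for DMSO and 139287 and 135665 for sorafenib. Sorafenib peaks were narrower, with medians of 285 and 280 bp against 449 and 384 bp, and less enriched, with medians of 5.51 and 5.56 against 6.61 and 6.95; the part of this difference in the region counts was not tested. RNA libraries of the sorafenib experiment held 16549330 to 21082356 reads in genes. RNA of hepatoma markers was nearly absent in cells labelled Huh7: ALB, APOB and GPC3 were at 0 in all 6 libraries, AFP reached at most 3.62 normalized read counts, and 1 of 10 markers, HNF4A, had a mean of at least 10 (88.8 to 152 with sorafenib, 333 to 350 with DMSO). No library had a peak over the start of AFP, ALB, SERPINA1 or FGB. The summed level of 5 stellate and fibroblast markers was 895 to 926 with sorafenib against 2188 to 2392 with DMSO, in which LUM was lower (405 to 483 against 1696 to 1872) and COL1A1 overlapped (421 to 476 against 432 to 495). That of 5 leukocyte markers was 16.04 to 18.2 against 4.37 to 11.2, with CD3E at 0, and that of 4 endothelial markers 35.4 to 56.2 against 66.5 to 75.3, with CDH5 lower (12.7 to 29.9 against 48.2 to 54.6) and VWF higher (19.4 to 28.8 against 13.5 to 17.5); their part in the RNA results was not tested.

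Regions open only with sorafenib were narrow and of modest height. Their median width was 316 bp (quartiles 245 and 430, range 150 to 1579), against 396 bp for regions open only with DMSO and 727 bp for those open in all 4 libraries. With 1 sorafenib library left out, so that a peak in the other was enough, the median width was 207 bp (without replicate 3) or 209 bp (without replicate 4). Together they covered 5.05 Mb. Enrichment is the fold of signal at a peak over its local background, as the authors' peak caller wrote it. Its median over these regions was 4.50 in replicate 3 and 4.49 in replicate 4, against 8.26 and 8.12 in the same libraries for regions open in all 4. An enrichment of at least 10 was reached by 609 of the regions in replicate 3 and 560 in replicate 4. Width and height went together: the 3860 regions up to 250 bp had a median enrichment, averaged over both libraries, of 4.23, and the 360 regions over 750 bp one of 7.80.

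The 2 sorafenib libraries placed these peaks at nearly the same bases. The rule required overlapping peaks of both libraries, so every value of agreement given here is a description. In 13808 regions each library had exactly 1 peak, and the median gap between the summits was 29 bp, with 65.5% within 50 bp. Enrichments were within 1.5-fold of each other in 90.7% of the regions. Across the 14131 regions the log2 enrichments had a Pearson correlation of 0.783, given as a description because both libraries chose the regions; the value over regions open in all 4 libraries was 0.903.

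**Figure D1:**
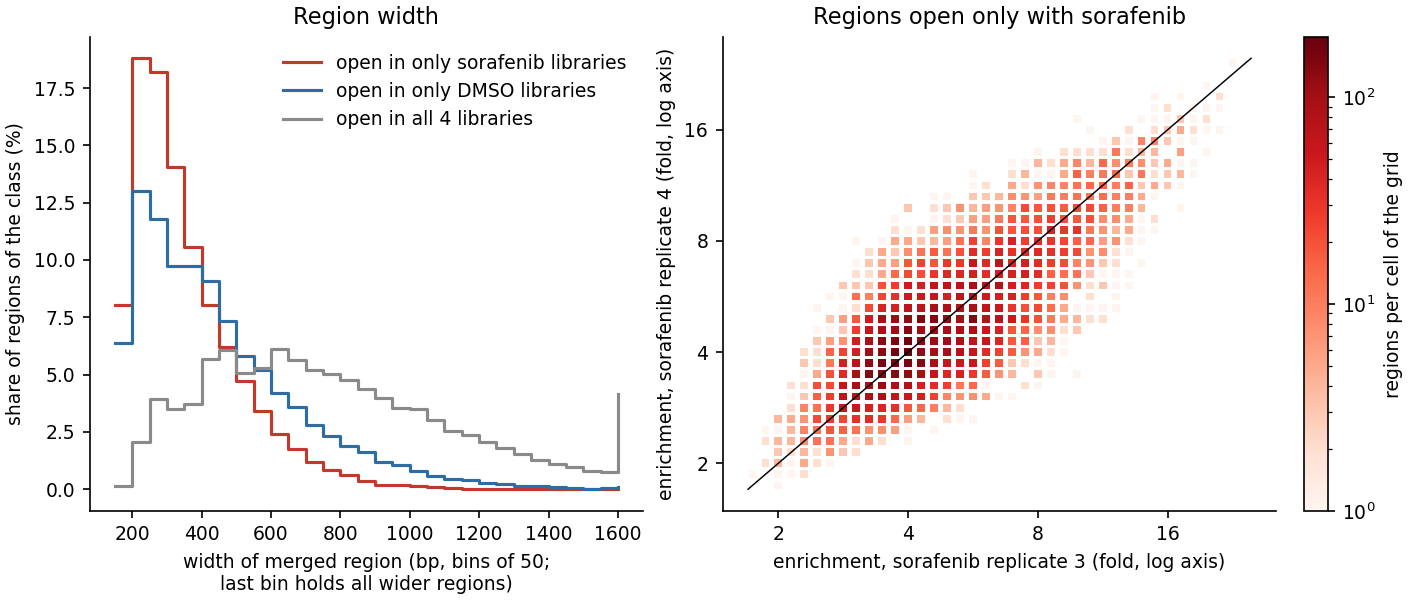
Left, share of regions (%) by width in bins of 50 bp for regions open only with sorafenib, only with DMSO and in all 4 libraries; right, enrichment (fold, log axes) of regions open only with sorafenib in replicate 3 against replicate 4, coloured by the number of regions per cell of the grid, with the line of equal values. Median widths were 316, 396 and 727 bp, and most regions lay near the line at enrichments of about 4.50.

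The region with the highest mean enrichment, chr3:163481637-163482117, reached 22.6 and 24.2 in the 2 libraries and lay 856826 bp from the nearest start in the table. The second, chr11:85495847-85496673 (21.8 and 20.05), lay within DLG2, a synaptic scaffold gene whose RNA did not pass the test (adjusted p = 0.721 by limma). Next came chr7:94022421-94023064 (20.97 and 20.2), 18066 bp from the start of BET1, a vesicle transport gene that rose by 0.43 ± 0.07 on the log2 scale (SE, n = 3 libraries a group, limma adjusted p = 7.96e-05). The fourth, chr17:14373645-14374277 (19.9 and 21.1), lay over the start of LROMI1. Strong regions were therefore found far from starts as well as over one. The widest region, chr19:37668402-37669980, spanned 1579 bp at enrichments of 8.37 and 8.81, and lay 12141 bp from the start of the zinc finger gene ZFP30. The second widest, chr13:46388619-46390186 (1568 bp), lay over the start of RUBCNL.

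At the other end, a region as weak as chr22:33018692-33019043 was still a member, with -log10 q values of 2.79 and 1.38. A region such as chr7:137636366-137636901 was not, because DMSO had a peak there at a -log10 q of 1.314, although sorafenib enrichments were 3.85 and 3.64. In all, 7750 regions held a peak in both sorafenib libraries and in exactly 1 DMSO library. Their median sorafenib enrichment was 4.87, and in 6563 of them the DMSO peak came from replicate 2, which had the longer list.

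Regions open only with sorafenib took a larger share of all regions on gene-dense chromosomes. On chromosome 19 they were 711 regions, 10.6% of those on it, followed by chromosome 16 with 9.64% and chromosome 20 with 8.77%. On chromosome 4 they were 290 regions, 3.12%. The share of regions open only with DMSO was highest on chromosome 4 (21.6%) and lowest on chromosome 19 (3.02%), followed by chromosomes 17 (5.80%) and 22 (5.84%). Across the 23 chromosomes the share had a Spearman correlation with protein-coding genes per Mb of 0.73 for regions open only with sorafenib, -0.82 for those open only with DMSO and 0.27 for those open in all 4. The points share the same 4 libraries, and base composition, which varies with gene density, was not examined by chromosome.

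**Figure D2:**
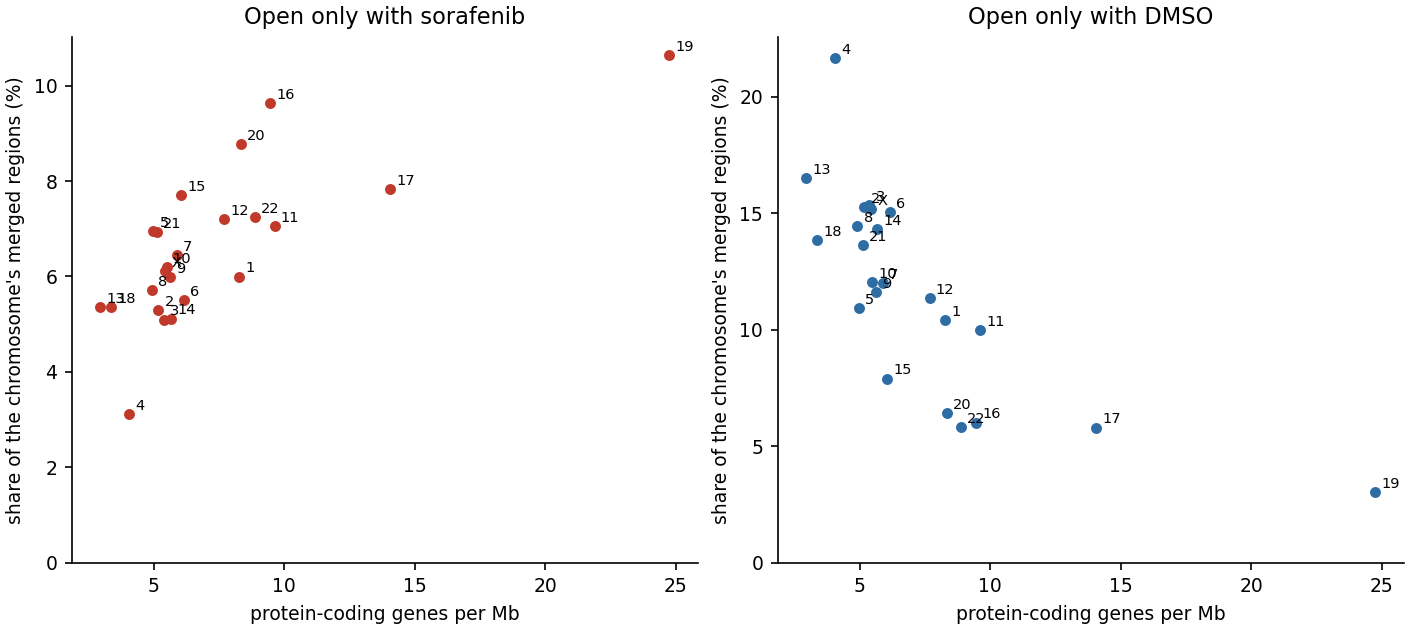
Share of each chromosome's merged regions (%) that were open only with sorafenib (left) or only with DMSO (right) against its protein-coding genes per Mb; each point is a chromosome, labelled by its name, and the vertical scales differ. Chromosome 19 has the highest share on the left (10.6%) and the lowest on the right (3.02%), and chromosome 4 the reverse.

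Chromosome 5 was divided. Between 0 and 46 Mb it held 774 regions open only with sorafenib among 8533 regions (9.07%), and beyond that 528 among 10203 (5.17%). Regions open only with DMSO took 6.76% and 14.4% of the same stretches. The first stretch was dense in regions of every kind, with 186 per Mb against 75.02 per Mb, and 10 of the 15 bins of 2 Mb with most regions open only with sorafenib lay on chromosome 5. The fullest, 4 to 6 Mb, held 62, where the median bin held 7. By share, among the 1346 bins with at least 50 regions, the bin at 68 to 70 Mb of chromosome 7 came first: 22 of its 53 regions (41.5%) were open only with sorafenib and 1 only with DMSO. AUTS2, whose span begins in that bin and which is best known from neural development, had at most 2.14 normalized read counts in any library. Of 1463 bins with a region, 90 held none that was open only with sorafenib.

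Most regions open only with sorafenib stood apart from each other, and some formed runs. The median gap between neighbours was 70837 bp, and 10218 (72.3%) had no other within 12.5 kb. With gaps of at most 12.5 kb there were 1728 runs of at least 2 regions, 356 of at least 3 and 22 of at least 5. The next merged region along the chromosome was also open only with sorafenib in 13.1% of cases, against their share of 6.40% of all regions. For regions open only with DMSO these values were 20.6% and 11.98%.

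The run with most regions, chr10:41880628-41914832, held 8 within 34205 bp, with enrichments of 3.30 to 6.22 in replicate 3. Peaks were filtered only by chromosome, with no removal of repeats or of places prone to false signal, so this was not examined for any run. The runs at chr22:49383799-49419290, chr14:94338308-94374303, chr19:3908196-3946080 and chr12:125296836-125335010 held 6 regions each. No region open only with DMSO lay inside any of the 5 runs. The chromosome 14 run had the highest enrichment among them, 13.4 in replicate 3 and 9.63 in replicate 4. It lay between SERPINA6 and SERPINA1, the latter the liver's main serine protease inhibitor, yet SERPINA6 had 0 reads in all 6 RNA libraries and SERPINA1 at most 1.07 normalized read counts. The chromosome 19 run covered NMRK2, a nicotinamide riboside kinase, and part of ATCAY, a neuronal gene, which reached at most 2.14 and 4.22. The chromosome 12 run lay in TMEM132B, with 11.8, 21.1 and 28.8 normalized read counts with sorafenib and 0, 0 and 1.93 with DMSO. These were 65 reads against 2, a ratio of 28.6 with a 95% exact counting interval of 7.62 to 242. TMEM132B reached the mean of 10 required for the RNA test only through the sorafenib libraries, so no test is given for it. Intervals and floors of read counts here cover counting error only.

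**Figure D3:**
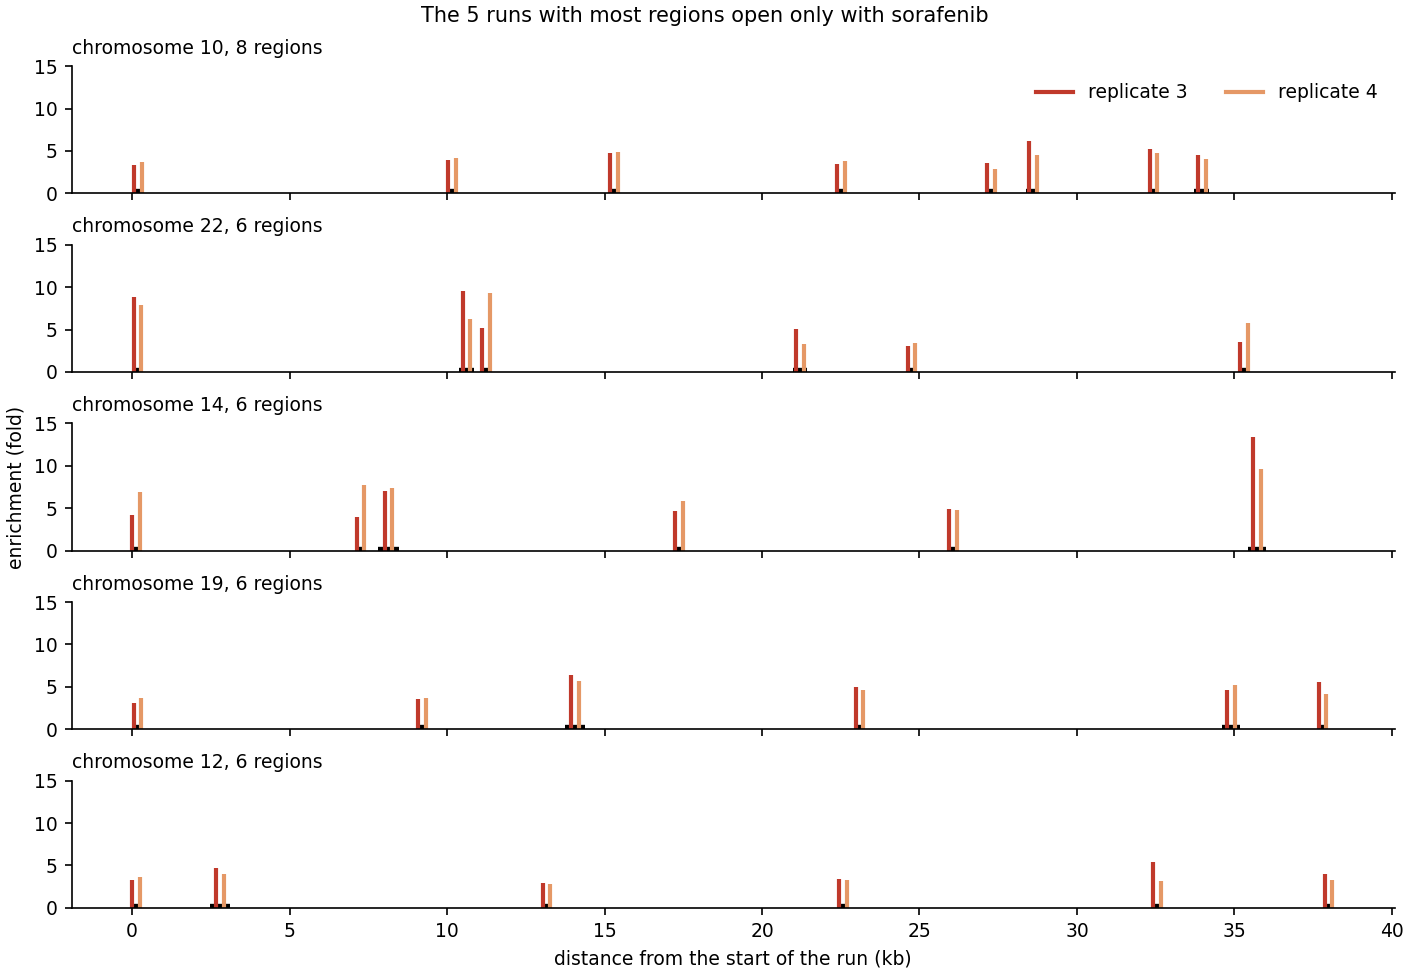
The 5 runs with most regions open only with sorafenib: enrichment (fold) in replicate 3 and replicate 4 against distance from the start of the run (kb), with each region's extent as a black bar on the axis. The runs hold 8, 6, 6, 6 and 6 regions, and the highest value, 13.4, is in the chromosome 14 run.

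The regions lay mostly away from gene starts. Starts were taken from the RefSeq promoter table, in which chromosome 8 was not used, so 13568 of the regions could be placed. Their median distance to the nearest start was 31548 bp, shorter than the 41269 bp of regions open only with DMSO and longer than the 20709 bp of regions open in all 4 libraries. A start lay inside 168 of them (1.24%) and within 2 kb of 991 (7.30%), against 14.8% and 20.5% for regions open in all 4. By contrast, 4878 (36.0%) lay over 50 kb from any start, and 59.8% of all 14131 lay within a gene span. Over all merged regions these shares were 34.1% and 64.5%. Of all merged regions 11.4% lay within 2 kb of a start, and their median distance was 28424 bp. The 4878 most distant regions had a median enrichment of 4.81, the 168 over a start 4.66 and the 823 others within 2 kb of a start 3.82. A region open in all 4 libraries was near many of them, at a median distance of 13316 bp and within 10 kb for 41.5%.

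Genes with a region open only with sorafenib within 2 kb of a start were more often lower than higher in RNA with sorafenib. There were 746 such genes, of which 416 passed the filter of a mean of 10 normalized read counts and were tested with limma. Of these, 119 (28.6%) were higher, 199 (47.8%) lower and 98 not called at an adjusted p under 0.05, where over all 14915 genes tested 34.4% were higher and 35.8% lower. Genes with a start in the table, the fitting comparison, were 32.8% higher and 38.6% lower. The median log2 change was -0.17 for the 416 genes, -0.05 for genes with a start and -0.02 for all genes tested. It was 0.09 for the 635 genes near such a region that were fitted with no filter on low values. Of the 416 genes, 17 reached the mean of 10 in the sorafenib group only, 13 of them called higher, and 4 in the DMSO group only, 3 of them called lower; such genes were admitted by the group where they were high. In bulk libraries fewer cells of a type and less RNA per cell cannot be told apart.

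The same direction was seen near regions open only with DMSO: of 572 tested genes 28.5% were higher and 44.2% lower, with a median of -0.14. RNA level and the presence of a shared region both moved with these shares. Genes near regions open only with sorafenib had a median level of 825 normalized read counts, against 566 for all tested genes with a start, and lower calls became more common with level. Among genes with a mean of up to 161 normalized read counts 21.98% of those near such a region were lower, against 18.7% of all with a start, and above a mean of 1395 these shares were 62.5% and 60.5%. The gap was wider between 161 and 566, with 44.2% against 32.3%, and between 566 and 1395, with 53.6% against 42.9%. Of the 416 genes, 369 also had a region open in all 4 libraries within 2 kb, and 103 of these were higher and 188 lower. Of the other 47, 16 were higher and 11 lower, with a median of 0.10.

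**Figure D4:**
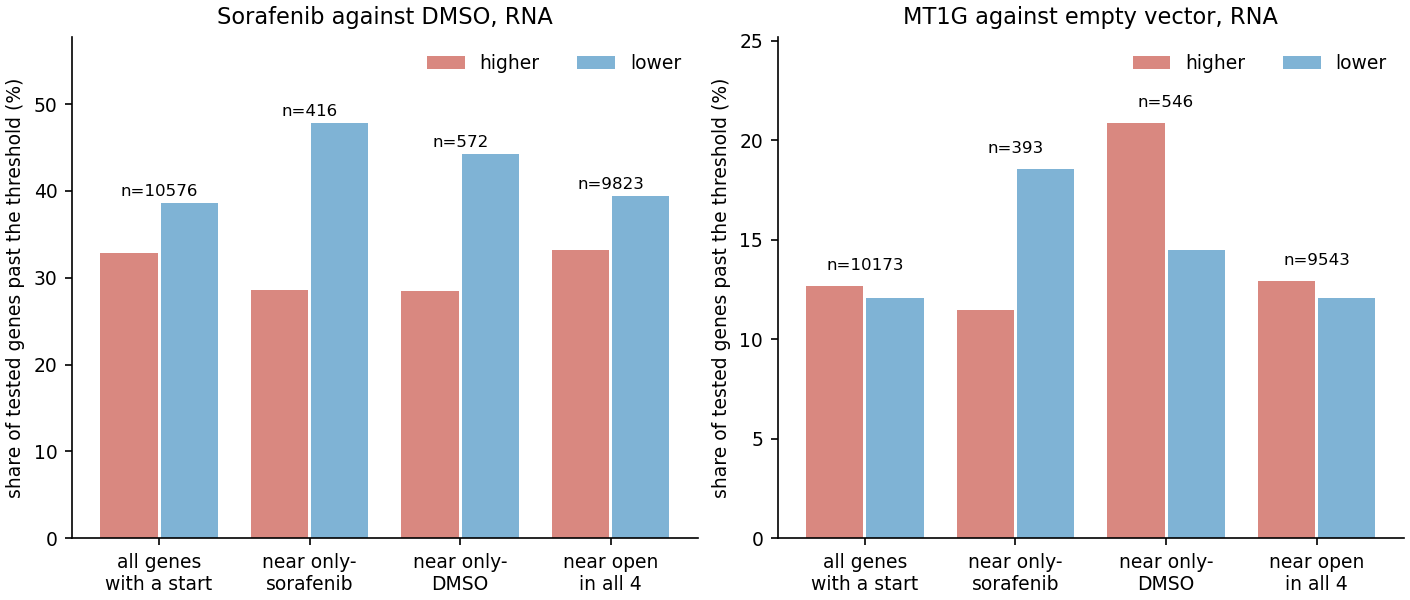
Share of tested genes (%) called higher or lower by limma at an adjusted p under 0.05 with sorafenib (left) and with MT1G overexpression (right), for all genes with a start and for genes within 2 kb of each class of region; n is the number of genes tested, and the vertical scales differ. With sorafenib the lower share is 38.6% for genes with a start and 47.8% near regions open only with sorafenib.

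More regions nearby did not go with a steady change in these shares. Of tested genes with a start, 4262 (40.3%) had a region open only with sorafenib within 50 kb, and 31.9% of them were higher and 39.8% lower. With 1 such region 31.4% of 2708 genes were higher, with 2 regions 32.7% of 1038, with 3 regions 32.3% of 381, and with 4 to 5 regions 34.6% of 127. The lower shares of the same groups were 40.1%, 40.2%, 40.4% and 29.1%. The 8 genes with 6 or more were MIR7-3HG, TMEM132B, ZDHHC11B, OSMR-AS1, OSMR, FEM1A, SLC9A3R2 and TCF7L1, of which OSMR-AS1 rose and OSMR and SLC9A3R2 fell. ZDHHC11B and OSMR lie in the first 46 Mb of chromosome 5, the stretch that was dense in regions of every kind. MIR7-3HG, TMEM132B and ZDHHC11B reached the filter only through sorafenib, with means of 32.2, 20.6 and 72.0 normalized read counts against 0, 0.643 and 6.86 with DMSO. MIR7-3HG, the host gene of a microRNA, had 31.0, 32.6 and 32.9 normalized read counts with sorafenib and 0 in each DMSO library. The 104 reads against 0 put it at least 30.6-fold higher over a floor of 3 reads in the group.

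Among the 10 largest rises and 10 largest falls near a region, a metallothionein and a chemokine gene had the largest log2 differences. Both had a region over the start. MT1B, a metallothionein, had 703, 835 and 844 normalized read counts with sorafenib and 0, 1.12 and 1.93 with DMSO. The 2578 reads of MT1B against 3 gave a ratio of 757 with a 95% exact counting interval of 259 to 3676, and reads may be shared with near-identical metallothionein copies. Besides the 200 bp region over its start (enrichments of 3.38 and 2.74), a second of 455 bp lay with its centre 381 bp downstream (2.66 and 2.53). CCL20, a chemokine that attracts lymphocytes and dendritic cells, had 184, 203 and 229 normalized read counts with sorafenib and 0, 0 and 3.86 with DMSO. The 656 reads against 4 gave a ratio of 145 with an interval of 56.2 to 532, and the 436 bp region over its start had enrichments of 5.18 and 5.17. The groups did not overlap for either gene, as the rule that chose them required, and both reached the filter on low values only through the sorafenib libraries, so their values are given with no test. SELE, an endothelial adhesion molecule also induced by NF-kB, was chosen after its values were seen: it had 75.1, 93.3 and 105 normalized read counts with sorafenib and 0 in each DMSO library, at least 85.2-fold higher over the same floor, and it too reached the filter only through sorafenib.

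Among the other genes with the largest rises, JUN, an AP-1 subunit, had 12509, 13291 and 13695 normalized read counts with sorafenib against 856, 897 and 976 with DMSO, a log2 rise of 3.85 ± 0.06 (SE, n = 3, limma adjusted p = 4.67e-17). Its 270 bp region at chr1:58782313-58782582 was centred 1.6 kb downstream of the start, and another of 602 bp 15.1 kb upstream. Within 50 kb of JUN there were also 6 regions open only with DMSO, the nearest 3848 bp from the start, and 9 open in all 4 libraries. ICAM1, an adhesion molecule for leukocytes, had 1840, 1890 and 2006 against 403, 427 and 427 normalized read counts, a log2 rise of 2.19 ± 0.07 (SE, n = 3, limma adjusted p = 1.87e-13). The 4 regions within 50 kb of ICAM1 had centres 10.8 and 5.6 kb upstream and 0.601 and 12.3 kb downstream, and the first had enrichments of 8.92 and 8.57. NFKBIZ, a nuclear IkB protein, had 922, 933 and 969 against 194, 220 and 231 normalized read counts. The groups did not overlap, which the choice of these genes required and which held for 73.0% of all 14915 genes tested. H2AC6, a replication-dependent histone H2A gene with close copies in its cluster, had 10625, 10662 and 11227 against 272, 272 and 272. UPP1, a uridine phosphorylase, had 6021, 6146 and 6433 against 1134, 1191 and 1304. SNAPC1, a subunit of the complex that activates small nuclear RNA genes, had 385, 418 and 451 against 85.8, 87.7 and 93.9. The zinc finger genes ZNF554 and ZNF441 rose by 2.35 and 2.18 on the log2 scale. JUN, ICAM1, NFKBIZ, H2AC6, UPP1, SNAPC1, ZNF554 and ZNF441 each passed limma, with adjusted p of at most 1.09e-08, the value of ZNF441.

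The genes with the largest falls were chosen in the same way. WNT5A, a secreted WNT ligand, had 221, 232 and 247 normalized read counts with sorafenib against 1286, 1472 and 1473 with DMSO, a log2 change of -2.59 ± 0.08 (SE, n = 3, limma adjusted p = 2.15e-13). Its 245 bp region lay 28 bp from the start at enrichments of 2.38 and 1.98, against medians of 4.50 and 4.49 over all regions of the class. AHDC1 had 143, 157 and 161 against 982, 1022 and 1074 normalized read counts, the largest fall (log2 -2.73 ± 0.09, limma adjusted p = 1.87e-13). HOXA13, a homeobox factor of limb and gut, had 74.3, 76.9 and 77.0 against 404, 414 and 426. The groups did not overlap for these genes, again by the rule that chose them. CSPG4, a cell surface proteoglycan, had 704, 721 and 730 against 2701, 2856 and 2944, with 3 regions centred 1125, 6875 and 12096 bp downstream of its start. ARID1A, a subunit of the SWI/SNF chromatin remodeller, had 761, 762 and 770 against 2320, 2440 and 2592. ZBTB7A, a zinc finger repressor, had 362, 380 and 389 against 1226, 1267 and 1329. TTYH3, OLFML2A, PPP1R9B (a targeting subunit of protein phosphatase 1) and FOXL2 (a forkhead factor) had log2 changes of -2.01, -1.91, -1.78 and -1.59, each past the limma test with adjusted p of at most 1.71e-09, the value of OLFML2A.

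**Figure D5:**
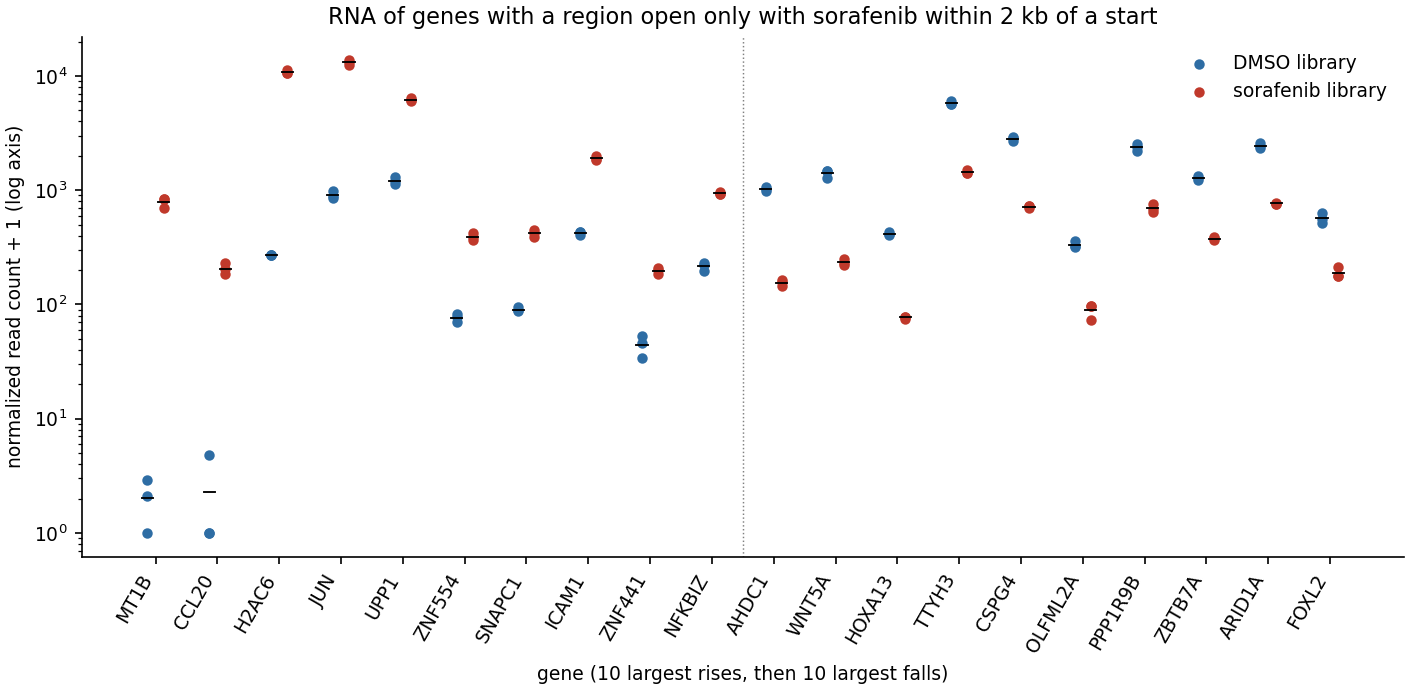
Normalized read count plus 1 (log axis) of the 10 genes with the largest rises and the 10 with the largest falls among genes with a region open only with sorafenib within 2 kb of a start; points are the 3 DMSO and the 3 sorafenib libraries and lines their means. For each gene the 2 groups do not overlap, which the naming rule required.

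Pathway lists differed in direction around the regions. The counts of called members, here and below, stand beside 34.4% higher and 35.8% lower over all 14915 genes tested. No list was tested as a set. In a list of NF-kB and inflammatory genes 22 of 24 tested members were higher and 2 lower. Those within 2 kb of a region were NFKBIA, NFKBIZ, CCL20 and ICAM1, and all 4 were higher. NFKBIA, the IkB inhibitor of NF-kB, had 3157, 3201 and 3300 against 1255, 1368 and 1441 normalized read counts. Of the 20 tested members with a start, 12 had a region open only with sorafenib within 50 kb (17 regions) and 14 a region open only with DMSO (31 regions), where over all tested genes with a start these shares were 40.3% and 59.5%. Numbers of regions per list, here and below, are sums over genes, so a region near several members is counted for each. Of the 12, 11 were higher, among them CXCL2 (log2 4.81) and CXCL3 (6.18), and IL11 was lower (-2.31). IL1A and IL1B, also among the 12, had means of 196 and 136 under sorafenib against 2.38 and 2.01 under DMSO, in normalized read counts. With CCL20, CXCL8 and CCL2 they were the 5 members that reached the filter only through sorafenib. Sterol synthesis genes went the other way: 17 of 18 were lower, and 8 of 12 with a start had a region open only with sorafenib within 50 kb, of which 7 were lower, and 5 one open only with DMSO. LSS, lanosterol synthase, and SREBF2, the sterol-sensing transcription factor, were within 2 kb and fell, with log2 changes of -0.56 and -0.50.

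In the AP-1 list 10 of 14 tested members were higher and 2 lower. Of the 11 with a start, 10 had a region open only with sorafenib within 50 kb (12 regions) and 8 one open only with DMSO (18 regions). Of the 10, 6 were higher, ATF3 (log2 4.17), JUN, MAFF (3.18) and FOSB (2.03) in front, and FOSL2 (-0.22) and JUND (-0.25) lower. The metallothionein list had 6 of 6 tested members higher, of which MT1B and MT1G reached the filter only through sorafenib. Of the 6, 3 had a start in the table, MT1B, MT1X (6.74) and MT2A (3.35). Each of these had a region within 50 kb and also regions open only with DMSO there. MT1E (4.08) and MT1G, placed by their gene spans, had 2 regions each within 50 kb. These were the 2 regions at MT1B, which MT1X also had within 50 kb, so the genes shared them. Among zinc and copper transport genes 4 of 17 were higher and 10 lower; SLC39A1, a zinc importer within 2 kb, fell by 0.33 ± 0.12 (SE, limma adjusted p = 0.0261), a call that was lost in 5 of the alternative settings. The zinc exporter SLC30A1 (3.14), with a region within 50 kb, was higher. SLC30A2, another, had a mean of 266 with sorafenib and was at 0 in the DMSO libraries, so it reached the filter only through sorafenib. Of 9 p53 targets with a start, 5 had a region open only with sorafenib and 3 one open only with DMSO within 50 kb, and the 5 were higher, GDF15 within 2 kb (log2 1.68 ± 0.09, SE), in a list with 10 of 12 higher and 2 lower. These log2 changes are from limma, and each passed its test.

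Hypoxia targets were 3 higher and 11 lower of 16, and 3 were within 2 kb: SLC2A1, the glucose transporter GLUT1, P4HA1, a collagen prolyl hydroxylase subunit, and ANGPTL4, a lipase inhibitor, had log2 changes of -0.59, -0.93 and -1.49, each past the limma test. In the ATF4 stress list 7 of 14 were higher and 5 lower, with CEBPG higher (1.35) and CEBPB lower (-0.42) within 2 kb, and PPP1R15A, a phosphatase subunit of the stress response with 5 regions within 50 kb, higher (3.84). The YAP and TEAD list was 7 of 12 higher and 4 lower, with LATS2 higher (0.76) and AXL lower (-0.31) near a region. KLF factors were 5 of 13 higher and 2 lower, and their members within 2 kb, KLF5 and KLF7, had log2 changes of 0.09 each that did not pass (limma adjusted p = 0.19 and 0.528). No tested member within 2 kb was found in the lists of immediate early genes (5 of 8 higher, 1 lower), ERK feedback genes (11 of 17 and 2), mesenchymal and matrix genes (6 of 17 and 7), liver transcription factors (0 of 6 and 5) or hepatocyte genes (0 of 2 and 2). Among the listed genes, ANKRD1, ASNS, IER3, KLF15, SPRY1 and SPRY4 also reached the filter only through sorafenib, and CA9 and SPRED3 only through DMSO. Such genes were admitted by the group where they were high.

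None of the 4 genes of the series title, DNMT1, MT1G, KLF4 and CA9, had such a region within 2 kb of a start. DNMT1, the maintenance DNA methyltransferase, held 1 in its gene body, 44478 bp from the start, and its RNA was 6362, 6523 and 6676 normalized read counts with sorafenib and 6664, 6743 and 6998 with DMSO (limma adjusted p = 0.328). MT1G, with 158, 189 and 194 against 0 in each DMSO library, had its nearest region 14236 bp from the gene span. At 580 reads against 0 it was at least 170-fold higher over a floor of 3 reads in the group. KLF4, a zinc finger factor, had 628, 632 and 695 against 75.3, 83.2 and 83.9, and the nearest region was 269938 bp from its start. CA9, a carbonic anhydrase of hypoxic cells, had 1.07, 3.38 and 9.97 against 176, 245 and 426, and its nearest region was 93861 bp away. MT1G and KLF4 were higher and CA9 lower in every sorafenib library than in every DMSO library.

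Many regions lay in long genes with little RNA. Of 19970 protein-coding genes 3653 held at least 1 region open only with sorafenib in their span, and 41 held 10 or more. The median span of these 41 was 639 kb, against 24.2 kb for all. Only 16 of them were tested in RNA, and 5 were higher and 6 lower, where 34.4% and 35.8% of all genes tested were. RBFOX1, a neuronal splicing factor gene, and TMEM132B each held 22, PTPRN2 21 and CDH4 20; RBFOX1 had 0 reads in all libraries, and CDH4, a cadherin, had a mean of 31.9 with sorafenib against 2.53 normalized read counts in the DMSO group, reaching the filter only through sorafenib. DLG2 held 19 and 15 open only with DMSO. TERT, the telomerase reverse transcriptase on chromosome 5, held 5 regions in a shorter span and none open only with DMSO within 2 kb. TERT lies in the first 46 Mb of that chromosome, where regions of every kind were dense, 186 per Mb against 75.02 per Mb beyond it. Its RNA was 254, 330 and 354 normalized read counts against 48.2, 57.4 and 58.9, with no overlap, a log2 rise of 2.48 ± 0.15 (SE, n = 3, limma adjusted p = 3.67e-10).

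The MT1G experiment had its own control libraries and gave a separate view of the same genes. Of 393 tested genes within 2 kb of a region open only with sorafenib, 45 (11.5%) were higher and 73 (18.6%) lower with MT1G, where over all 13914 genes tested 11.5% were higher and 11.3% lower by limma. Genes near regions open only with DMSO had 20.9% higher and 14.47% lower of 546. Without the third vector column 35 of the genes near regions open only with sorafenib were lower (8.86%, against 5.72% of genes with a start), and without the second 40 (10.2% against 6.24%); with all columns 12.1% of genes with a start were lower. NFKBIZ rose here too (log2 1.32 ± 0.14, SE, limma adjusted p = 8.72e-07), H2AC6 by 0.78 and JUN by 0.36, while PPP1R9B fell by 0.50 and FOXL2 by 0.42. ANGPTL4, lower with sorafenib, was higher with MT1G (1.38 ± 0.30, SE, limma adjusted p = 0.0027). Of 390 genes near a region that were tested in both experiments, 45 (11.5%) were lower in both and 14 (3.59%) higher in both, against 6.77% and 4.41% of all 10114 with a start.

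Promoter windows were searched over their whole length, also outside the regions, for the letters of 9 motifs, on both strands. Regions open only with sorafenib overlapped 239 windows of 226 genes, of the 34961 in the table. Of these genes 54 were tested, 11 higher and 24 lower, where 32.8% and 38.6% of tested genes with a start were. Among the 11, MT1B, CCL20, SELE and LINC00973 reached the filter only through sorafenib. LINC00973 had 52.3, 67.0 and 76.0 normalized read counts with sorafenib and 0, 0 and 1.12 with DMSO. The AP-1 site TGANTCA was in 16.7% of the 239 windows, in 18.6% of those overlapped by regions open only with DMSO, in 6.62% of those open in all 4 libraries and in 7.68% of all windows. The NF-kB consensus was in 34.7%, 18.3%, 31.1% and 25.6%, in the same order. The GC box GGGCGG was in 35.6%, 24.7%, 68.7% and 45.0%. Median GC content of the 4 sets of windows was 54%, 47%, 65.3% and 58.7%; the GC box shares had the same order, the NF-kB and AP-1 shares did not, and the part of base composition in them was not tested. The metal pattern TGCNCNC was in 55.2% of the windows and in 55.9% of all, so the 5 matches in the MT1B window concern a short, loose pattern that most windows hold. TEAD ACATTCC was in 3.77% against 3.47% of all windows, CRE TGACGTCA in 1.26% against 1.85% and ETS CCGGAAG in 4.18% against 10.3%. HNF4 CAAAGTCCA was in 0.418% against 0.386%, and the SRF consensus in 0 of the 239 against 0.0343%. The AP-1 and CRE patterns share their ends, but neither contains the other.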

How the data were processed

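Open chromatin was measured by ATAC-seq in 4 libraries and RNA in 12. Per the submitters' processing notes, MACS2 2.2.7.1, Bowtie2 2.4.1, featureCounts 1.6.1, SAMtools, Picard, HISAT2, cutadapt and DESeq2 were used on build hg38, in roles that the notes do not give. The RNA signal values are the authors' normalized read counts for 59609 genes. The deposited peak lists, 1 per library, hold a score, a ratio (fold enrichment at the summit), and a -log10 p and a -log10 q per peak, all written by the authors' peak caller; their lowest -log10 q was 1.30. The score was not used.

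Peaks sharing at least 1 bp were merged (python 3.11.15), with no removal of repeats or of places prone to false signal. Regions within 12.5 kb formed runs. Genes were near a region within 2 kb of a start in the RefSeq promoter table (GRCh38.p14, 18460 of 59609 RNA genes matched by name, 70.9% of tested genes). RNA was tested with limma 3.58.1 in R 4.3.3 (trend, robust, two-sided) on log2(normalized read count + 1), where the mean reached 10, with Benjamini-Hochberg adjustment over all genes and a threshold of 0.05, per experiment; fold changes on this scale are understated for low genes. For sorafenib, all values (100%) came out as whole reads within 0.001, so edgeR 4.0.16 and DESeq2 1.42.0 were run on them as alternatives; edgeR called 5367 genes higher and 5076 lower, against 5137 and 5347 with limma. The fit was tested on simulated data. RNA columns name a group but no replicate number, and were used as replicates of the group.

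Named genes were those of the series title, the 10 largest rises and falls near a region that passed the test, reached a mean of 100 and did not overlap, and up to 3 members per list; named regions were the most enriched, the widest, the runs with most regions and those at the threshold. Genes within 50 kb, TERT, SELE, BET1 and those by number of regions were named after their values were seen. The regions, gene lists and tests were chosen with earlier results of these data known.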

Additional observations from a re-analysis of the deposited data

How the results depend on the processing

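With a -log10 q of at least 5 there were 9437 regions, which overlapped 8228 (58.2%) of the 14131 and were close to 1.5 times fewer. The count stayed within 1.5 times under equal numbers of top peaks, overlap of at least 0.5 of the shorter peak and merging up to 500 bp, and was 15419 to 36905 when a library was left out; leaving out a sorafenib library gave 33482 (replicate 3) or 36905 (replicate 4), with median widths of 207 or 209 bp. Other windows changed the number of genes: with sorafenib 34 higher and 60 lower (median -0.19) at 500 bp, 353 and 480 (-0.10) at 10 kb, and 745 and 945 (-0.0586) within 2 kb of the gene span; with MT1G 13 and 18, 103 and 193, and 293 and 357. The sorafenib median was -0.17 with a -log10 q of at least 5, -0.15 with DESeq2, -0.14 with TMM factors, -0.15 with edgeR, -0.17 with a pseudocount of 5 and 0.0871 with no filter on low values. Leaving out a library gave 104 to 127 higher and 182 to 198 lower genes and medians of -0.19 to -0.13 with sorafenib, and 30 to 47, 35 to 90 and -0.07 to -0.05 with MT1G. The share of lower genes near the regions was above that of genes with a start in 17 of 17 settings with sorafenib and 14 of 14 with MT1G. edgeR and gene spans were added after the data were seen. Windows and left-out libraries change the genes or regions counted by construction; the cause of the other shifts was not tested. SLC39A1 lost its sorafenib call in 5 settings, with limma or DESeq2 adjusted p of 0.0567 to 0.124. No paired analysis was possible because the RNA columns carry no replicate number of a sample and the ATAC-seq groups share no number. With 2 libraries a group, and peaks called per library, a region near the calling threshold can change class.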
